A study of Mus musculus with 16 samples.

Results

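The genes described here were the 6 subunit genes of the MCM replicative helicase, Mcm2 to Mcm7, and the 3 miRNA genes of the Mir106b cluster, Mir106b, Mir93 and Mir25, which lie inside Mcm7. They were chosen by name, through the Ensembl identifiers of these symbols, and made up 9 of the 53801 genes in the count table. Small RNA was sequenced from ventricles of C57BL/6JOlaHsd mice of both sexes on 4 days after birth, named P01, P04, P09 and P23 for the age in days, with 4 animals a day and 1 library an animal. No mouse was treated, and the labels give age as the difference between the groups. By the study's methods, the younger mice had milk alone and P23 mice could also eat mouse diet, so age and diet cannot be told apart at P23. The study asked how small RNAs change while the mouse heart loses its capacity to regenerate. Libraries were named here by the day and the number in the header of the count table, as in P01 replicate 8. This number is not the replicate number of the labels.

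The MCM proteins form a hexameric ring that is loaded on replication origins before S phase and unwinds DNA at the fork together with CDC45 and the GINS complex, and their genes are well-known transcriptional targets of E2F factors in cycling cells. Mouse cardiomyocytes are known to leave the cell cycle in the weeks after birth. The Mir106b cluster is transcribed within the Mcm7 gene and belongs to the same family of clusters as Mir17 to Mir92-1 and Mir106a to Mir363, whose miRNAs are known to repress E2f1, Cdkn1a and other cell cycle genes.

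The mature miRNAs of the cluster are shown first, because their seeds (bases 2 to 8, in capitals) decide which genes elsewhere are their closest relatives. All sequences are from RefSeq on GRCm38.p6, written 5′ to 3′, and all 9 genes had a position in that annotation.
miR-106b-5p: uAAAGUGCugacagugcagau
miR-93-5p: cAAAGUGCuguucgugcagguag
miR-17-5p: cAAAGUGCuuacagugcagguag
miR-20a-5p: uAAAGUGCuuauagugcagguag
miR-25-3p: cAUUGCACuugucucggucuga
miR-92a-3p: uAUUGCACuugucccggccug
miR-32-5p: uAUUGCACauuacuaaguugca
The strands shown for the cluster lie on the minus strand at chr5:138165787-138165807 (miR-106b-5p), chr5:138165574-138165596 (miR-93-5p) and chr5:138165332-138165353 (miR-25-3p). miR-106b-5p and miR-93-5p share the seed AAAGUGC with miR-17-5p and miR-20a-5p, and miR-25-3p shares the seed AUUGCAC with miR-92a-3p and miR-32-5p. Over the 21 positions that both have, miR-106b-5p is identical to miR-93-5p at 16 and to miR-17-5p at 18. None of the 3 cluster sequences occurs in another hairpin of the RefSeq table, whereas miR-92a-3p is encoded by both Mir92-1 and Mir92-2. Counts were per hairpin gene, so that the arms of a hairpin were not told apart.

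Mcm7 spans 7529 bases of chromosome 5 (138164583 to 138172111, minus strand), and the 3 hairpins lie in its downstream part, in the order Mir106b (138165737 to 138165818), Mir93 (138165523 to 138165610) and Mir25 (138165321 to 138165404). They fill 498 bases from the first to the last, with 126 bases between Mir106b and Mir93 and 118 bases between Mir93 and Mir25. Ap4m1, a subunit gene of an adaptor protein complex, lies on the opposite strand and shares 91 bases with the 5′ end of Mcm7. Because the strand setting and the treatment of reads on overlapping genes were not given in the sources used here, counts of Mcm7, the hairpins and Ap4m1 are uncertain where these genes overlap, and whether reads of the hairpins or introns entered the Mcm7 count was not tested. The other subunit genes lie apart from it, Mcm3 (20802966 to 20820312) and Mcm6 (128331575 to 128359705) on chromosome 1, Mcm2 on chromosome 6 (88883474 to 88898780), Mcm5 on chromosome 8 (75109468 to 75128439) and Mcm4 on chromosome 16 (15623897 to 15637400).

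**Figure D1:**
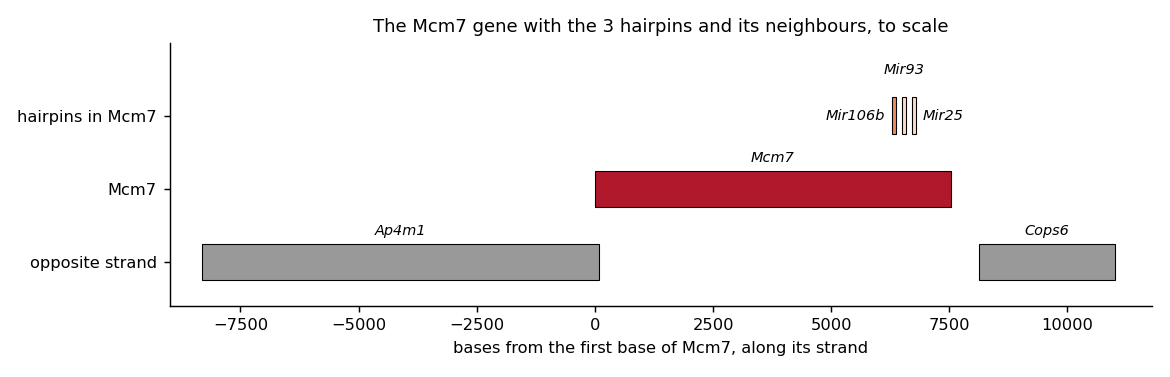
Map of the Mcm7 gene on GRCm38.p6, drawn to scale in bases from the first base of Mcm7 along its own strand, with the 3 hairpins above and the neighbours Ap4m1 and Cops6, which are on the opposite strand, below. The hairpins lie 6293 to 6790 bases from the first base of Mcm7, and Ap4m1 reaches 91 bases into it.

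Total counts were 2301587 to 5553530 per library. miRNA genes took 2.12% to 4.54% of the counts, and mitochondrially encoded genes took 40.9% to 44.1% at P23, against 25.6% to 27.0% at P09 and 17.6% to 19.7% at P01. All 10 cardiomyocyte markers had counts in these libraries. Of the genes in the table, 10742 passed the filter on low counts and were tested, among them 7 of the 9 described here, since Mir93 and Mir25 had 0 counts. Levels are given as CPM, the counts of a gene per 1000000 counts of the library after scaling by TMM factors. They were not corrected for transcript length, so levels are compared between days and not between genes. The libraries were made for small RNA. Counts of protein-coding genes in them, the Mcm genes included, need not follow the levels of full mRNA, and this was not tested. In bulk tissue, fewer cells of a type and less RNA per cell cannot be told apart. A gene was called at an adjusted p under 0.01 and a fold change over 1.8, the limits that the study used for miRNAs. The study's minimum mean count of 300 was not applied, and Mir106b, with at most 297 counts in a library, lay below it.

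In these small RNA counts, Mcm7 and the other ring subunits had different courses. Mean levels of Mcm2, Mcm3, Mcm4, Mcm5 and Mcm6 were highest at P04 and lowest at P23, whereas Mcm7 was lowest at P04 and P09 and highest at P23. Mir106b, which shares the gene of Mcm7, had its highest mean at P01 and close to equal means at P09 and P23.

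Mcm2, whose product carries a histone-binding tail and closes the ring next to Mcm5, had 4.05, 0.925, 2.41 and 1.79 CPM at P01, 6.36, 6.25, 8.37 and 8.03 CPM at P04, 8.34, 5.71, 3.86 and 4.09 CPM at P09, and 0.804, 0.710, 1.82 and 1.65 CPM at P23. All P04 libraries were above all P01 libraries and all P23 libraries were below all P09 libraries. Mcm3, the partner of Mcm5 in the ring, had 7.74, 5.55, 7.24 and 5.73 CPM at P01, 8.65, 10.0, 10.5 and 10.6 CPM at P04, 7.40, 6.86, 7.88 and 6.02 CPM at P09, and 1.61, 2.37, 1.36 and 1.65 CPM at P23. The P23 libraries lay below those of every earlier day.

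Mcm4, which with Mcm6 and Mcm7 forms a subcomplex that has helicase activity of its own in vitro, had 3.68, 4.16, 3.10 and 1.79 CPM at P01, 5.34, 5.83, 7.32 and 5.28 CPM at P04, 5.52, 6.40, 3.54 and 6.88 CPM at P09, and 1.07, 1.66, 2.27 and 1.65 CPM at P23. Its P23 libraries overlapped with the lowest P01 library but not with P04 or P09. Mcm6, another member of that subcomplex, had 8.11, 5.55, 9.99 and 9.66 CPM at P01, 8.65, 12.9, 9.67 and 9.64 CPM at P04, 7.67, 5.71, 6.27 and 8.17 CPM at P09, and 2.68, 2.84, 3.86 and 1.98 CPM at P23. All P23 libraries of Mcm6 were below those of the other days, and its P04 and P01 libraries overlapped. Mcm5 had the lowest counts of the 6, with 2.95, 1.85, 1.03 and 2.51 CPM at P01, 6.36, 2.92, 4.18 and 4.82 CPM at P04, 3.50, 1.83, 3.86 and 3.23 CPM at P09, and 0, 0.946, 0.908 and 0 CPM at P23. The P23 values of Mcm5 rest on 8 counts in all, and those of Mcm2, Mcm4 and Mcm3 on 19, 26 and 27 counts. At P01, Mcm5 had 22 counts in all, Mcm2 had 25 and Mcm4 had 33.

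Mcm7 followed another course, with 48.3, 58.3, 34.5 and 38.3 CPM at P01, 21.9, 25.4, 31.1 and 26.4 CPM at P04, 23.3, 29.0, 20.6 and 25.2 CPM at P09, and 62.7, 65.1, 38.1 and 46.9 CPM at P23. All P23 libraries were above all P04 and P09 libraries, and all P01 libraries were above them too. These values rest on 86 to 275 counts per library, more than for any other subunit. Its mean at P23 was 119% of its mean at P01, against 22.2% for Mcm5, 26.6% for Mcm3, 34.1% for Mcm6, 52.2% for Mcm4 and 54.2% for Mcm2.

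**Figure D2:**
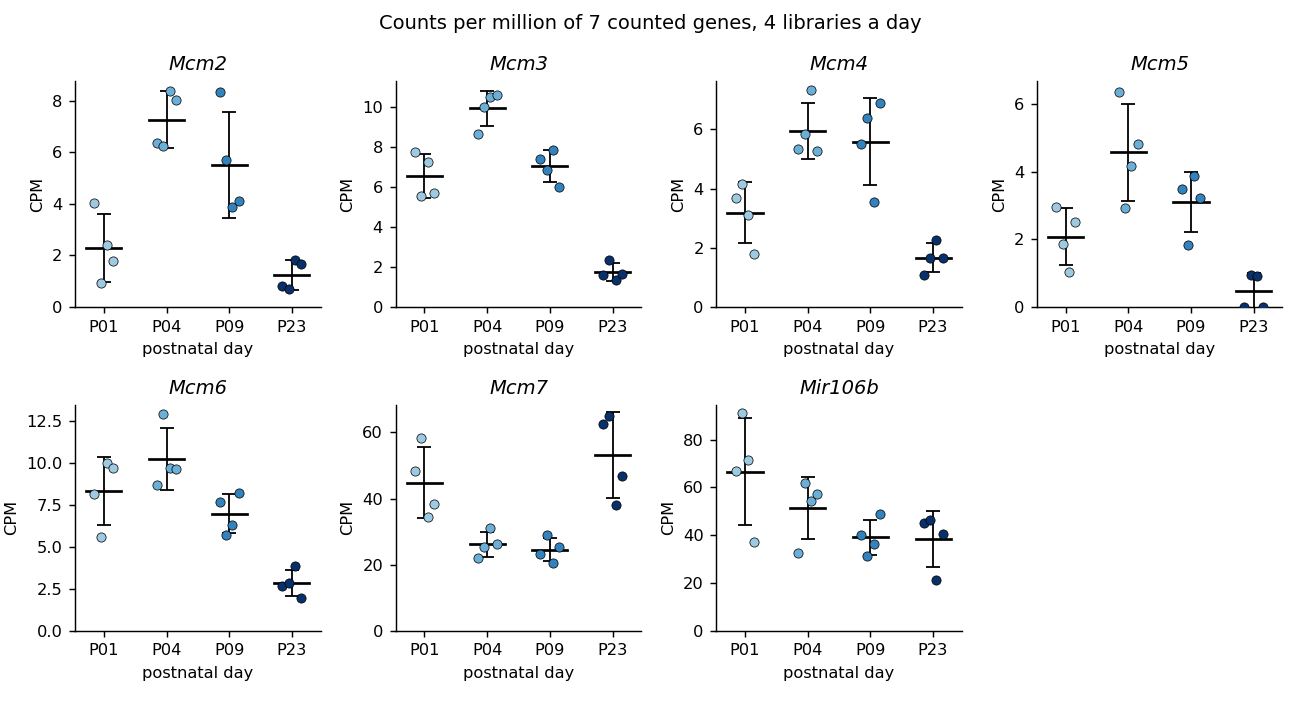
CPM (linear axis from 0, a scale of its own for each gene) of the 7 genes with counts at P01, P04, P09 and P23. Points are the 4 libraries of a day, the wide bar is the mean and the thin bar the SD. Mcm2 to Mcm6 have their lowest means at P23, and Mcm7 reaches 38.1 to 65.1 CPM at P23, above the 20.6 to 29.0 CPM of P09.

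In P23 against P09, 5 of the 6 subunit genes were lower at P23 (5.55% of all tested genes were called lower) and 1 was higher (4.78% of all tested genes). Mcm5 fell by 2.55 on the log2 scale (SE 0.496, edgeR adjusted p = 0.000223), to a mean of 0.463 ± 0.535 CPM at P23, against 3.10 ± 0.888 CPM at P09 (SD, n = 4 each). Mcm2 fell by 2.16 (SE 0.352, adjusted p = 2.13e-05) and Mcm3 by 2.00 (SE 0.236, adjusted p = 1.13e-07), 4.46-fold and 3.99-fold lower at P23. Mcm4 fell by 1.69 (SE 0.293, adjusted p = 4.83e-05) and Mcm6 by 1.26 (SE 0.238, adjusted p = 0.000161), the smallest fall of the 5. Mcm7 rose by 1.12 (SE 0.172, adjusted p = 1.47e-05), to 53.2 ± 12.9 CPM at P23, against 24.5 ± 3.55 CPM at P09 (SD, n = 4 each), which is 2.18-fold. The 95% interval of its log2 fold change, 0.77 to 1.47, lay wholly above 0, and those of the other 5 lay wholly below. Libraries of the 2 days did not overlap for any of the 6 genes (of all tested genes, 12.8% were lower and 13% higher without overlap). At an adjusted p under 0.05 with no limit on fold change, 5 of the 6 were lower and 1 higher too (11.4% and 12.8% of all tested genes).

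These 6 calls were made in each alternative that tested the gene, with the log2 fold change of Mcm7 between 0.93 and 1.26. Mcm5 did not pass the filter on low counts once every library was thinned to the depth of the shallowest. Markers of the cells in the tissue moved between the same days. The 10 cardiomyocyte markers summed to 12093 to 14330 CPM at P23, against 9413 to 10363 CPM at P09, with 2 called higher and 1 lower, and the 8 endothelial markers to 105 to 153 CPM at P23, against 122 to 157 CPM at P09, with 2 lower at an adjusted p under 0.05 but not called. The 12 leukocyte markers summed to 775 to 1321 CPM at P23, against 159 to 225 CPM at P09, with 4 of 8 tested called higher, and Mir223 was at 0. Mir150 alone had a mean of 864 CPM at P23, against 136 CPM at P09, and Cd79a and Cd3e had 0 counts at P23. The 12 erythroid markers summed to 1321 to 1726 CPM at P23, against 610 to 813 CPM at P09, with 4 of 7 tested called higher, and Hbb-bh1 was at 0. The 8 fibroblast markers summed to 440 to 568 CPM at P23, against 788 to 878 CPM at P09, with 4 of 8 called lower, and none was at 0. Of the 8, 1 was higher at an edgeR adjusted p under 0.05. Mean levels rose from P09 to P23 in Dcn (110 to 161 CPM), Pdgfra (6.56 to 8.58 CPM) and Lum (19.1 to 20.5 CPM), and fell in the other 5. The part of these markers in the changes of the Mcm genes was not tested.

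P23 against P04 gave the same split of the subunits, 5 lower (12.5% of all tested genes) and 1 higher (9.57%), from the same P23 libraries. The falls were 3.06 for Mcm5, 2.52 for Mcm2, 2.48 for Mcm3 and 1.81 for Mcm6 (log2 scale, edgeR adjusted p 5e-10 to 5.87e-06), and Mcm4 was 3.47-fold lower (adjusted p = 1.19e-05). Mcm7 was 2.03-fold higher at P23 (log2 fold change 1.02, SE 0.173, adjusted p = 2.59e-05), with 53.2 ± 12.9 CPM at P23, against 26.2 ± 3.81 CPM at P04 (SD, n = 4 each). Libraries did not overlap for any of the 6 genes (18.4% of all tested genes were lower and 17.2% higher without overlap). At an adjusted p under 0.05, 5 were lower and 1 higher as well (21% and 19.6%). The cardiomyocyte markers summed to 12093 to 14330 CPM at P23, against 6614 to 8181 CPM at P04, and the fibroblast markers to 440 to 568, against 615 to 799. The leukocyte markers summed to 775 to 1321 CPM, against 148 to 271, and the erythroid markers to 1321 to 1726, against 193 to 252. The atrial and endothelial sums overlapped, and the part of the markers was not tested.

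Over the whole series, P23 against P01, 3 subunit genes were called lower (16.6% of all tested genes were) and none higher (13.6%). Mcm3 fell by 1.90 (SE 0.261, edgeR adjusted p = 3.98e-07), to 1.75 ± 0.432 CPM at P23, against 6.56 ± 1.09 CPM at P01 (SD, n = 4 each). Mcm6 fell by 1.53 (SE 0.253, adjusted p = 8.14e-06), to 2.84 ± 0.774 CPM at P23, against 8.33 ± 2.03 CPM at P01 (SD, n = 4 each). Mcm5 fell by 1.95 (SE 0.606, adjusted p = 0.00857), a call that rests on few counts. It was lost on leaving out P01 replicate 1, 5 or 8, P04 replicate 6, P09 replicate 2 or 5, or P23 replicate 1 or 8, with log2 fold changes of -1.98 to -1.55 and adjusted p of 0.0103 to 0.0395. Mcm4, at -0.88 (SE 0.360, adjusted p = 0.043), Mcm2, at -0.92 (SE 0.460, adjusted p = 0.102), and Mcm7, at 0.25 (SE 0.171, adjusted p = 0.235), were not called. The interval for Mcm7, -0.10 to 0.60, did not reach the fold limit in either direction. At an adjusted p under 0.05 alone, Mcm4 joined the 3 called genes (24.6% of all tested genes were lower and 23.2% higher). Mcm3, Mcm5 and Mcm6 were lower at P23 than at P01 without overlap (21.6% of all tested genes were lower and 20% higher without overlap). With size factors from the miRNA genes alone, an alternative chosen after seeing the data, which raised the median of all genes by 0.58 in this comparison, Mcm3 alone kept its call, at -1.34, and Mcm7 was at 0.83 (edgeR adjusted p = 0.00147), just under the fold limit. The leukocyte markers summed to 775 to 1321 CPM at P23, against 89.2 to 104 CPM at P01. Mir150 alone had a mean of 864 CPM at P23, against 37.6 CPM at P01. Of 8 leukocyte markers tested, 4 were called higher and 1 was lower at an edgeR adjusted p under 0.05. The erythroid markers summed to 1321 to 1726 CPM at P23, against 368 to 392 CPM at P01. The cardiomyocyte markers summed to 12093 to 14330 CPM at P23, against 6349 to 6579 CPM at P01, with 6 called higher and 1 lower. The atrial markers summed to 35.9 to 100 CPM, against 126 to 181 CPM, and the sums of the fibroblast and endothelial markers overlapped. The part of these markers was not tested.

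In P04 against P01 the log2 fold changes of the subunits other than Mcm7 were above 0 and that of Mcm7 was below 0. Mcm2 rose by 1.61 (SE 0.337, edgeR adjusted p = 0.00114), to 7.25 ± 1.11 CPM at P04, against 2.30 ± 1.32 CPM at P01 (SD, n = 4 each), which is 3.04-fold, and it was the only Mcm gene called (1.07% of all tested genes were called higher and 4.12% lower). Mcm5, at 1.11 (SE 0.399, adjusted p = 0.0663), Mcm4, at 0.91 (SE 0.288, adjusted p = 0.0334), Mcm3, at 0.59 (SE 0.197, adjusted p = 0.0485), and Mcm6, at 0.28 (SE 0.208, adjusted p = 0.439), were not called. Mcm7, at -0.77 (SE 0.175, adjusted p = 0.0032), passed the limit on p but with 1.70-fold not the limit on fold change. At an adjusted p under 0.05 alone, Mcm2, Mcm3 and Mcm4 were higher and Mcm7 lower (4.73% and 7.49% of all tested genes), and these were also the genes whose libraries did not overlap (7.4% and 8.93%). On leaving out P01 replicate 6 or P04 replicate 4, Mcm7 was called lower, at -0.88 and -0.85. The 4 atrial markers summed to 33.9 to 85.2 CPM at P04, against 126 to 181 CPM at P01, with Myl4, an atrial myosin light chain gene, called lower (-2.22, SE 0.420, adjusted p = 0.00325) of 3 tested, and none was at 0. The erythroid markers summed to 193 to 252 CPM at P04, against 368 to 392 CPM at P01. The fibroblast markers summed to 615 to 799 CPM, against 461 to 593 CPM. The leukocyte markers summed to 148 to 271 CPM, against 89.2 to 104 CPM, with Mir150 alone at a mean of 141 CPM at P04. The cardiomyocyte markers summed to 6614 to 8181 CPM, against 6349 to 6579 CPM, and the endothelial sums overlapped. The part of these markers in the changes of the Mcm genes was not tested.

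In P09 against P04 no Mcm gene was called by edgeR or by DESeq2 (3.7% of all tested genes were called lower and 1.39% higher by edgeR), and 2 had an unadjusted edgeR p under 0.05. These were Mcm6, at -0.56 (SE 0.192, adjusted p = 0.0483), and Mcm3, at -0.48 (SE 0.175, adjusted p = 0.0593). Both were lower at P09 than at P04 without overlap (9.67% of all tested genes were lower and 9.37% higher without overlap), and Mcm6 alone was lower at an adjusted p under 0.05 (8.26%, with 6.63% higher). Mcm7 was at -0.10, with an interval of -0.46 to 0.26. The cardiomyocyte markers summed to 9413 to 10363 CPM at P09, against 6614 to 8181 CPM at P04, and the erythroid markers to 610 to 813, against 193 to 252. The sums of the atrial, endothelial, fibroblast and leukocyte markers overlapped.

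In P09 against P01, the comparison across the loss of regenerative capacity, Mcm2 was called higher and Mcm7 lower (6.18% and 11.5% of all tested genes were). Mcm2 was at 1.24 (SE 0.340, edgeR adjusted p = 0.00472), with 5.50 ± 2.07 CPM at P09, against 2.30 ± 1.32 CPM at P01 (SD, n = 4 each). Mcm7 was at -0.87 (SE 0.174, adjusted p = 0.000273), with 24.5 ± 3.55 CPM at P09, against 44.8 ± 10.7 CPM at P01 (SD, n = 4 each). Mcm7 was also the only Mcm gene without overlap (17.8% of all tested genes were lower and 15.6% higher without overlap), and at an adjusted p under 0.05 Mcm4 was higher as well, at 0.80 (15.7% were higher and 18.7% lower). Both calls lay close to a limit. Mcm2 lost its call without P01 replicate 5, 6 or 8 or P09 replicate 2 (0.94 to 1.25, adjusted p 0.0136 to 0.038), and also under DESeq2 (1.23, adjusted p = 0.0119) and in a fit of only these days (1.23, adjusted p = 0.0119). Mcm7 lost its call without P01 replicate 1 or 5, P04 replicate 1, or P09 replicate 2 or 4, where its log2 fold change of -0.84 to -0.71 was under the fold limit, and without the filter on low counts, at -0.71. With size factors from the miRNA genes, which raised the median of all genes by 0.72 here, Mcm7 was at -0.10 (adjusted p = 0.702), and Mcm4, at 1.54 (adjusted p = 0.000128), and Mcm5, at 1.31 (adjusted p = 0.00714), were called higher. Mcm4 was also called higher without P09 replicate 4, at 0.99 (adjusted p = 0.00687). The atrial markers summed to 38.6 to 206 CPM at P09, against 126 to 181 CPM at P01. The erythroid markers summed to 610 to 813 CPM at P09, against 368 to 392 CPM at P01. The fibroblast markers summed to 788 to 878 CPM, against 461 to 593 CPM, and the leukocyte markers to 159 to 225 CPM, against 89.2 to 104 CPM. The cardiomyocyte markers summed to 9413 to 10363 CPM, against 6349 to 6579 CPM, and the endothelial sums overlapped. The part of these markers in the values of the Mcm genes was not tested.

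The share of each subunit in the counts of the 6 genes needs no scaling between libraries. Mcm7 took 64.5%, 76.4%, 59.2% and 64.1% of them at P01, 38.2%, 40.1%, 43.8% and 40.8% at P04, 41.8%, 52.3%, 44.8% and 47.0% at P09, and 91.1%, 88.4%, 78.9% and 87.1% at P23. The P23 libraries were above all others and the P04 and P09 libraries below all others. The mean was 86.4% ± 5.26 at P23, against 66.0% ± 7.30 at P01 (SD, n = 4 each), a difference of 20.3 percentage points (two-sided exact permutation p = 0.0286, the smallest that 4 libraries against 4 allow, adjusted p = 0.0857 over the 6 subunits). Mcm3 took 2.86% ± 0.386 at P23, against 9.91% ± 2.13 at P01 (SD, n = 4 each, exact permutation p = 0.0286, adjusted p = 0.0857). No share passed an adjusted p of 0.05, and the other 4 subunits had exact permutation p of 0.0571 to 0.314. With so few libraries, the smallest p cannot pass 0.05 after adjustment unless further subunits reach it too. The adjusted p therefore does not show that the shares were unchanged. A share of counts depends on transcript length, so it does not give the ratio of the subunits' transcripts.

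Mir106b, the first hairpin of the cluster, had 66.7, 91.1, 71.3 and 37.2 CPM at P01, 32.6, 61.8, 54.1 and 57.4 CPM at P04, 40.0, 31.5, 36.5 and 48.8 CPM at P09, and 45.3, 46.4, 21.3 and 40.6 CPM at P23. Libraries overlapped between every pair of days. Its means were 66.6 ± 22.3, 51.5 ± 13.0, 39.2 ± 7.28 and 38.4 ± 11.7 CPM in that order (SD, n = 4 each), from 94 to 297 counts per library.

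Mir106b was not called in any of the 6 comparisons by edgeR or by DESeq2, and 2 of them had an unadjusted edgeR p under 0.05. These were P23 against P01, at -0.79 (SE 0.299, edgeR adjusted p = 0.0427), and P09 against P01, at -0.76 (SE 0.296, adjusted p = 0.0638). P01 replicate 8 was the lowest of its day, and without it Mir106b was called lower in both, at -0.98 (adjusted p = 0.00517) and -0.95 (adjusted p = 0.00927). With size factors from the miRNA genes alone, Mir106b was at -0.24 in P23 against P01 (adjusted p = 0.396) and at -0.01 in P09 against P01 (adjusted p = 0.974). Between P23 and P09 Mir106b was at -0.03 with an interval of -0.67 to 0.61, which does not reach the 1.12 of Mcm7.

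The ratio of Mir106b to Mcm7 counts in the same library compares the hairpin gene with its host without scaling. It was 1.38, 1.56, 2.07 and 0.972 at P01, 1.49, 2.43, 1.74 and 2.17 at P04, 1.72, 1.09, 1.77 and 1.94 at P09, and 0.722, 0.713, 0.560 and 0.866 at P23. All P23 libraries were below all libraries of the other days. The log2 ratio was 1.17 lower at P23 than at P09, 1.44 lower than at P04 and 1.03 lower than at P01 (each two-sided exact permutation p = 0.0286, the smallest possible, adjusted p = 0.0571 over the 6 comparisons, n = 4 each). The other 3 comparisons had exact permutation p of 0.2 to 0.629. With 3 of 6 comparisons at the smallest p, no adjusted p under 0.05 was possible. Against the summed counts of Mcm2 to Mcm6 in place of Mcm7, the ratio was higher at P23, by 1.77 than at P09 and by 1.83 than at P04 on the log2 scale (exact permutation, adjusted p = 0.0429 each). Mcm2 to Mcm6 do not host the hairpin and were lower at P23, where Mcm7 was higher. This second ratio therefore does not compare the hairpin gene with its host.

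**Figure D3:**
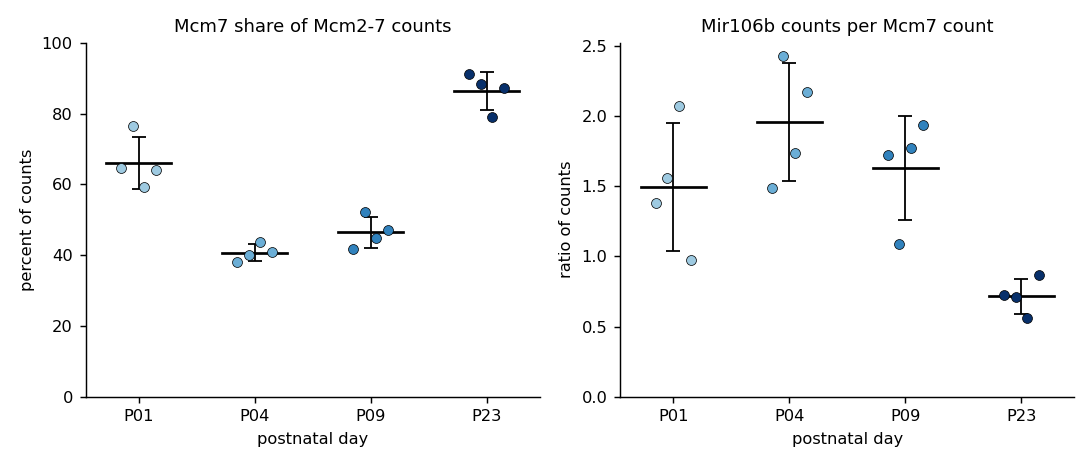
Left, counts of Mcm7 as a percent of the counts of Mcm2 to Mcm7, and right, Mir106b counts per Mcm7 count, in each of the 4 libraries a day at P01, P04, P09 and P23 (linear axes, wide bar the mean, thin bar the SD). At P23 the share is 78.9% to 91.1%, above all other days, and the ratio is 0.560 to 0.866, below all other days.

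Mir93 and Mir25 had 0 counts in all 16 libraries. A count of 0 allows up to 3 counts, or 0.404 to 1.39 CPM depending on the library, and covers counting error only. The zeros do not show that these miRNAs were absent, since whether reads of these hairpins could be counted was not tested. Of the 1194 miRNA genes in the table, 575 (48.2%) were at 0 in every library, and why was not tested. No ratio to Mcm7 and no fold change was formed for them.

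The relatives of the cluster elsewhere in the genome also had few counts. Of the 7 genes with the seed AAAGUGC, only Mir106b and Mir20b had any counts, and Mir20b had 0 to 4 per library. Of the 7 genes with the seed AUUGCAC, 4 had counts, and Mir92-2, Mir92b and Mir32 passed the filter. Mir92-2, with 3 to 13 counts per library, was called lower at P09 than at P01 (log2 fold change -1.37, SE 0.372, edgeR adjusted p = 0.00445), and Mir32 was called in no comparison. Mir92b, named after its values were seen, was called lower at P09 than at P01 (-2.09, SE 0.455, adjusted p = 0.000815) and at P23 than at P01 (-1.73, SE 0.470, adjusted p = 0.00382). Mir19b-2, which has another seed and lies in the cluster of Mir106a to Mir363, had 40 to 192 counts. It was called lower at P23 than at P01, at -1.31 (SE 0.207, adjusted p = 1.66e-05), and at P23 than at P04 and P09 than at P01. Mir106b and Mir32 had values below 0 in those 3 comparisons as well, which did not pass the limits. Mir19b-2 was at -0.86 in P09 against P01, close to the fold limit. Of all tested genes, 11.5% were called lower at P09 than at P01, 16.6% at P23 than at P01 and 12.5% at P23 than at P04. These relatives were not tested with size factors from the miRNA genes, which raised the median of all genes by 0.72, 0.58 and 0.38 in that order.

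Of 7 neighbouring genes listed, 5 were tested, and their log2 fold changes in P23 against P09 were -0.33 to 0.18, below the fold limit. Cops6, a COP9 signalosome subunit gene downstream of Mcm7, was at -0.05 (SE 0.151), Taf6, a TFIID subunit gene, at 0.18 (SE 0.192) and Ap4m1 at -0.11 (SE 0.462, all edgeR, adjusted p 0.555 to 0.902). Ap4m1 was called lower at P23 than at P04 (log2 fold change -1.39, SE 0.414, adjusted p = 0.00759), the only neighbour called there.

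Other genes of DNA replication were counted from lists of origin licensing, of helicase activation and partners, and of synthesis at the fork. In P23 against P09, 1 of 7 tested licensing genes was called lower (10 were listed), 5 of 9 activation and partner genes (16 listed) and 10 of 21 synthesis genes (24 listed), and none was called higher (5.55% of all tested genes were called lower and 4.78% higher). The medians of the log2 fold changes were -0.46, -1.11 and -1.24, beside 0.00 over all tested genes and -1.84 for the 6 Mcm genes. In P23 against P01 the counts were 1 of 7, 6 of 9 and 10 of 21 called lower, again with none higher, where 16.6% of all tested genes were called lower and 13.6% higher. The largest falls there were in Clspn, a fork checkpoint mediator, at -5.01 (SE 0.692, edgeR adjusted p = 4.29e-07), and Tk1, the S phase thymidine kinase, at -4.74 (SE 0.625, adjusted p = 1.86e-07). At P23 Clspn had 1 count and Tk1 had 2 counts in the 4 libraries together, so the size and rank of both falls are uncertain. The falls were smaller in Pcna, the sliding clamp, at -1.13 (SE 0.278, adjusted p = 0.00119), Topbp1, an activator of origin firing, at -0.94 (SE 0.238, adjusted p = 0.00163), and Gmnn, the inhibitor of licensing, at -0.96 (SE 0.278, adjusted p = 0.00493).

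In P04 against P01, where Mcm2 rose, the medians of the 3 lists were 0.33, 0.14 and 0.21 in that order, beside 0.01 over all tested genes and 0.75 for the 6 Mcm genes, and 1 tested gene was called, an activation and partner gene that was lower. Among the other proteins with an MCM fold, Mcm9, a repair helicase gene, was called lower at P23 than at P01 (log2 fold change -1.35, SE 0.354, adjusted p = 0.00215) and than at P04. Mcm8, its partner, and Mcmdc2, a meiotic gene, had too few counts to be tested. Of the replication genes tested, Mcm7 was the only one called higher in P23 against P09.

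**Figure D4:**
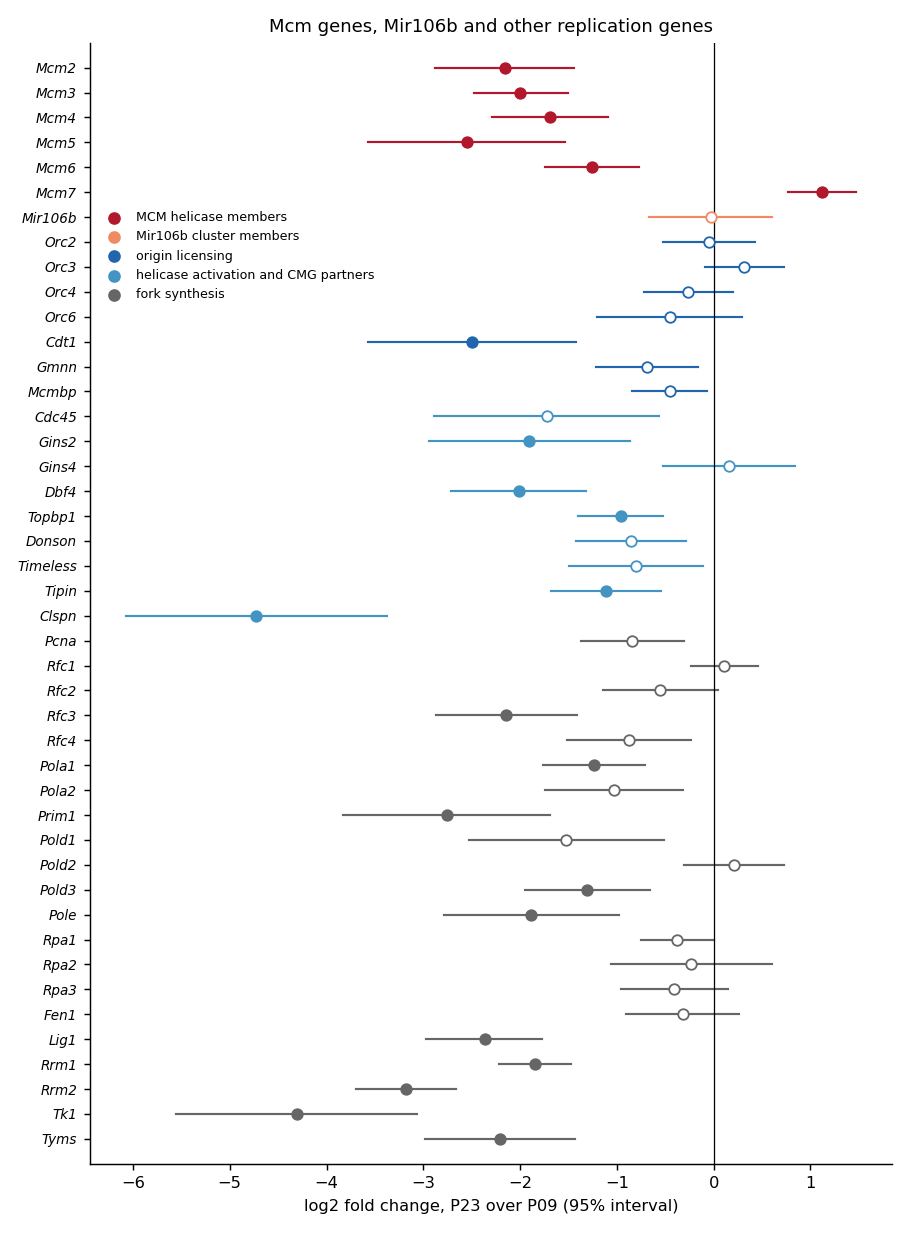
Log2 fold change of P23 over P09 with its 95% interval from edgeR for the 6 Mcm genes, Mir106b and the tested genes of the licensing, activation and synthesis lists. Filled points were called (adjusted p under 0.01 and over 1.8-fold), open points were not. Mcm7, at 1.12, is the only filled point right of 0.

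Of 13 listed E2F, DP and RB genes, which encode the best-known regulators of these genes, 12 were tested, and 6 were called lower and 1 higher at P23 than at P01 (16.6% and 13.6% of all tested genes were). E2f1 was at -3.36 (SE 0.247, edgeR adjusted p = 1.35e-12). The others called lower were E2f4 (-1.62), E2f7 (-2.48), E2f8 (-2.96), Tfdp1 (-1.41) and Rbl1 (-2.55). E2f6, the only one called higher there, was 2.82-fold higher (SE 0.212 on the log2 scale, adjusted p = 6.72e-07). In P23 against P09, 5 of the 12 were called lower and 1 higher (5.55% and 4.78% of all tested genes were). The latter was Tfdp2, at 1.22 (SE 0.141, edgeR adjusted p = 6.64e-08), named after its values were seen. Of 10 genes listed as targets of the Mir106b cluster, E2f1 among them, 4 were called lower at P23 than at P01 and none higher, with a median of -0.76. Ezh2, the Polycomb methyltransferase gene on that list, was at -1.22 (SE 0.257, adjusted p = 0.00021).

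The promoters of the subunit genes were read for E2F words, as a description. The RefSeq windows of 250 bases before to 50 bases after the start site held 5 of the 6 genes, Mcm2, Mcm3, Mcm5, Mcm6 and Mcm7, the last with 2 start sites. The words TTTCCCGC, TTTGGCGC, TTTCGCGC and TTTGCCGC were searched on both strands, where they may overlap each other. They occurred in 2.26% of all 32851 promoter windows and in windows of 2.6% of all 27025 genes. Of the 5 Mcm genes, 4 had them, Mcm3, Mcm5, Mcm6 and Mcm7 (1 of its 2 windows). The stretches around a word in each gene are printed 5′ to 3′ along the gene with the word in capitals, and a word on the other strand appears as its reverse complement.
Mcm3: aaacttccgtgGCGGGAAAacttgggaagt
Mcm5: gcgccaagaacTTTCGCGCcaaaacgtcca
Mcm6: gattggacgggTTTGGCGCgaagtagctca
Mcm7: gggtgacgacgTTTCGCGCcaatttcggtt
They lie at chr1:20820275-20820304 (Mcm3, minus strand), chr8:75109345-75109374 (Mcm5, plus strand), chr1:128359734-128359763 (Mcm6, minus strand) and chr5:138171849-138171878 (Mcm7, minus strand). The Mcm7 word starts 16 bases after the start site of its window, and a further word lies 165 bases before that site. Both Mcm7 start sites lie inside the gene span given above, whose first base is 138172111. The windows are chr5:138171834-138172133 and chr5:138171217-138171516, so sequence before that first base was hardly read. The further word, in the stretch chr5:138172030-138172059, lies inside Mcm7 where the gene overlaps Ap4m1. The word TTTCGCGC, on one strand or the other, was found in Mcm5, Mcm6 and Mcm7. Whether these words have a part in the changes of the Mcm genes was not tested. No such word was found in the Mcm2 window, which says only that these letters are not in it. CCAAT, the NF-Y word, occurred in windows of all 5 genes, beside 41.1% of all genes and 37.4% of all windows.

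The genes whose levels over the 16 libraries were most like those of Mcm7 were Gda, a guanine deaminase gene (Pearson r of log2 CPM 0.93), mt-Tn, a mitochondrial tRNA gene (0.89), Mir128-1 (0.88) and Mir149 (0.86), out of 6336 genes with a mean count of at least 20. Their means were lowest at P04 or P09 and highest at P23, as in Gda with 16.6 ± 1.73, 6.87 ± 1.79, 7.07 ± 1.44 and 18.2 ± 4.16 CPM from P01 to P23 (SD, n = 4 each). Values of r for Mcm7 were 0.27 with Mir106b and -0.84 to -0.64 with the other 5 subunits. Mcm3, for comparison, had r of 0.78 to 0.90 with Mcm2, Mcm4, Mcm5 and Mcm6, and was most like Mtss1, an actin regulator gene, Nrk, a kinase gene, Ssrp1, a histone chaperone gene, Smc2, a condensin gene, and Nasp, another histone chaperone gene (0.95 to 0.96). The genes most like Mir106b were Mir674, Entr1, n-R5s205, Trim47 and Gm26457 (0.82 to 0.87). The lists for Mcm3 and Mir106b were chosen after their values were seen. All these correlations are descriptions over libraries that share scaling and depth.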

How the data were processed

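Small RNA libraries (SMARTer smRNA-Seq kit, which tails RNA 3′ ends, with no molecular identifiers) came from 16 animals. The deposited values are raw counts per gene. Per the submitters' processing notes, the authors used bcl2fastq, Trimmomatic, STAR and featureCounts on GRCm38.p6. Their versions, the annotation release, strand setting and treatment of overlapping genes or reads with several matches were not given in the sources used here. Columns were assigned to days by their names, and 1 value column was not used. Symbols were found for 53620 of the 53801 genes. No 2 libraries of a day were copies, with chi-square divided by its degrees of freedom at 5.05 to 27.9 over the 24 pairs. Nothing ties libraries to litters, so p-values measure the spread between animals as sampled.

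Counts were tested with edgeR 4.0.16 (R 4.3.3, limma 3.58.1): filterByExpr (minimum count 10, minimum total 15), TMM factors, 1 robust quasi-likelihood fit of all 16 libraries with day as factor, and Benjamini-Hochberg adjustment over the 10742 tested genes. The step was tested on simulated data. Standard errors come from the fold change and its F statistic. Ratios and shares were compared by exact permutation of 70 assignments. DESeq2 1.42.0, other scalings, filters, limits, thinning to the shallowest library and leaving out each library were alternatives. Log2 CPM used a prior count of 2. Python 3.11.15 with numpy 2.4.6, pandas 2.3.3 and matplotlib 3.10.9 did the rest.

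The members and lists were chosen with earlier results of these data known. The rule named the members, their paralogs, neighbours of Mcm7, the called genes with the largest and smallest change of each list in P23 against P01, and the 5 genes most like Mcm7 and Mir25. Of those most like Mcm7, 1 is not reported here. Mir25 had no counts and was replaced by Mir106b. The planned adjustment of the ratio tests over 18 became one over 6, since Mir93 and Mir25 gave none. Ccne1, Ccne2 and Cdk2 were taken out of the E2F list after its values were seen.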

Additional observations from a re-analysis of the deposited data

How the results depend on the processing

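No paired analysis was possible because no animal was sampled on more than 1 day. The numbers in the headers of the count columns are not the replicate numbers of the labels. Of 997 values of the 42 fold changes under alternatives, 957 kept direction and side of the limits, 23 lost a call, 7 gained one and 10, none of them called, changed sign. The cause was not tested in any case. The number of Mcm genes called was 6 in P23 against P09 and against P04 in all alternatives but thinning, where it was 5. In P04 against P01 it was 1, with 4 at an adjusted p under 0.05 without a fold limit and 1 to 2 on leaving out a library. In P09 against P04 it was 0, with 1 at that limit. In P09 against P01 it was 2, with 1 under DESeq2, without the filter and with only those days, and 0 to 2 on leaving out a library (0 without P01 replicate 5 or P09 replicate 2), and 3 with miRNA scaling and at an adjusted p under 0.05. In P23 against P01 it was 3, with 1 under miRNA scaling. Mir106b was called once (1 gene against 0) in P23 against P01 at an adjusted p under 0.05, and on leaving out a library the count was 0 to 1 there and in P09 against P01. Scaling by miRNA genes, chosen for the Mcm genes after seeing the data, moved the median of all genes by -0.14 to 0.72. The percent of calls that were lower was 66.0 with it, against 79.4 with TMM, in P04 against P01, 8.03 against 72.7 in P09 against P04, 67.2 against 53.7 in P23 against P09, 13.4 against 65.0 in P09 against P01, 27.9 against 56.7 in P23 against P04 and 24.0 against 55.1 in P23 against P01. Without the filter it was 67.9 in P04 against P01 and 54.7 in P09 against P01. Scaling by miRNA genes reversed P09 against P04 for Mcm2 (0.16), Mcm3 (0.044), Mcm4 (0.44), Mcm7 (0.45) and Mir106b (0.14), and P09 against P01 for Mcm6 (0.43). Scaling by protein-coding genes, added likewise, changed no call. On leaving out 1 library, Mcm4 in P09 against P04 was -0.219 to 0.071 (above 0 without P04 or P09 replicate 4), and Mir106b in P23 against P09 was -0.122 to 0.171 (above 0 without P09 replicate 5 or P23 replicate 6). The log2 ratio of Mir106b to Mcm7 changed sign in all 6 comparisons when Mcm2 to Mcm6 stood for Mcm7, to -1.11 (P04 against P01), 0.063 (P09 against P04), 1.77 (P23 against P09), -1.05 (P09 against P01), 1.83 (P23 against P04) and 0.72 (P23 against P01). Without 1 library it was -0.05 to 0.32 in P09 against P01 and kept its sign in the other 5. Depth limits Mcm2, Mcm3, Mcm4 and Mcm5 most, with 8 to 27 counts each at P23. At P01, Mcm2, Mcm4 and Mcm5 had 22 to 33 counts each, and both Mcm2 calls against P01 rest on 25 counts there.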

Other observations

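The zeros of Mir93 and Mir25 were set beside the positions of other miRNA genes, as values only. RefSeq placed 973 miRNA genes of the table. Of 478 that lie within a protein-coding gene on the same strand, as Mir106b, Mir93 and Mir25 do, 202 (42.3%) had 0 counts in all libraries, and of 495 that do not, 256 (51.7%) did.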
